A study of Rattus norvegicus with 56 samples.

Results

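Gene expression in the liver was compared between zeitgeber time 16 (ZT16, in the dark phase) and ZT4 (in the light phase) in adult female rats whose mothers had been undernourished in pregnancy and returned to regular chow after the birth (IUGR-RC, intrauterine growth restriction followed by regular chow). The members were chosen by their labels for sex, diet history and time, which gave 7 of the 56 libraries of the series, 4 at ZT16 and 3 at ZT4. All were Sprague-Dawley rats of day 180, kept under 12 h of light and 12 h of darkness. For the IUGR groups, chow calories of the dams were cut by 50% between gestation day 10 and birth, and the dams then ate regular chow freely. The comparison groups were IUGR-RC males, with 4 libraries at each time, and control (CON) females, whose dams ate chow throughout, with 3 libraries at each time. The labels name no litter, so pups that share a dam cannot be identified. The p-values weigh differences against a spread between libraries that is pooled over all groups of the series. The tissue is labelled as mouse liver, although the species given is rat.

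The liver clock is a feedback loop of transcription. BMAL1 (gene Arntl) with CLOCK or NPAS2 activates the Per and Cry genes, whose proteins then block that activation. The REV-ERB proteins (Nr1d1, Nr1d2) repress Arntl, and the transcription factors DBP, TEF and HLF carry the rhythm to metabolic genes. In nocturnal rodents Arntl and Npas2 transcripts are high early in the light phase, and Per2 transcripts are high around the start of the dark phase.

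The deposited counts were expressed as CPM, read counts relative to the library total on a common scale, with library sizes adjusted by TMM, a scaling that lessens the weight of a few very abundant genes. The 7 libraries held 8198770 to 18656737 counted reads. Genes were tested with edgeR's quasi-likelihood test in a single fit of the 56 libraries, 11047 of 17337 genes passed a filter on low counts, and a gene was called at an adjusted p under 0.05 (Benjamini-Hochberg). The hepatocyte markers were abundant in all 7 libraries, with a summed level of 261000 to 483000 CPM over 12 genes and none at 0. The highest sum was in ZT4 replicate 3, above the other 49 libraries of the series (186000 to 403000 CPM). Erythroid markers summed to 234, 375 and 366 CPM at ZT4 and 162 to 211 CPM at ZT16, within the range of the other 49 (58.9 to 502 CPM).

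Of the 3 ZT4 libraries, 2 stood apart. ZT4 replicate 3 had clock transcripts near the ZT16 levels. Of 37 clock genes tested, 24 had both other ZT4 libraries outside the range of the ZT16 libraries. In 23 of these replicate 3 lay nearer to the ZT16 mean, the exception being Klf13. Of all tested genes, 12.2% had every ZT16 library above ZT4 replicates 1 and 2, and 10.6% had every one below. How often replicate 3 lay nearer over all tested genes was not counted. Replicate 3 was doubted for its clock genes, so their count describes that choice and is no separate finding. A time index was also computed over 164 genes outside the clock lists that were called in IUGR-RC males with at least a 2-fold difference (log2 of at least 1). It sets 0 at the male ZT4 mean and 1 at the male ZT16 mean. The index was 0.932 in ZT4 replicate 3, 0.482 and 0.504 in ZT4 replicates 1 and 2, and 1 to 1.09 in the ZT16 libraries. On this line replicate 3 lay below the 4 ZT16 libraries of its sex and far above the other ZT4 libraries. On a line drawn between CON females at the same times, over 189 genes, it was 1.01, above the 4 ZT16 libraries (0.864 to 0.923), and the other ZT4 libraries were at 0.207 and 0.230.

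**Figure D1:**
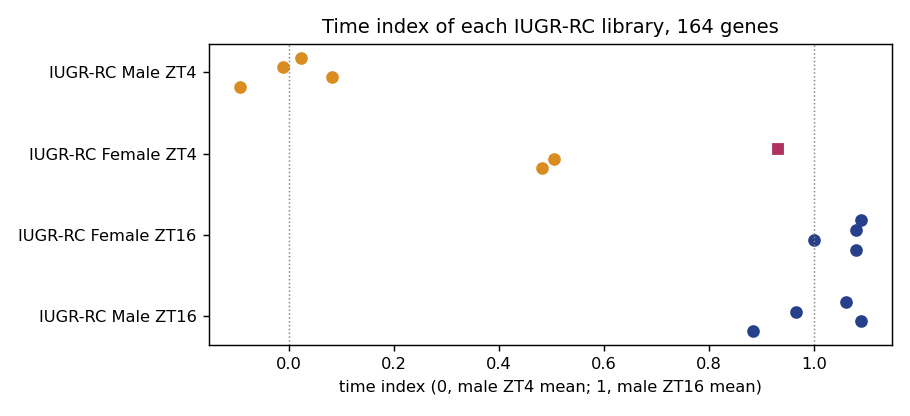
Time index (x axis, no unit; 0 is the IUGR-RC male mean at ZT4 and 1 that at ZT16) of each IUGR-RC library, 1 point per library, by sex and time (y axis). The male libraries define the line, so their closeness to 0 and 1 is no finding. The square is female ZT4 replicate 3 at 0.932, beside the ZT16 libraries, and the 2 other female ZT4 libraries are at 0.482 and 0.504.

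ZT4 replicate 2 carried transcripts of skeletal muscle. The summed level of 22 skeletal muscle markers was 6410 CPM there, against 5.74 to 14.9 CPM in the other 6 libraries and 6.29 to 707 CPM in the other 49 libraries of the series. Markers of stellate cells and fibroblasts summed to 920 CPM in the same library and to 253 to 361 CPM in the other 6. In ZT4 replicate 2, 120 genes were more than 5-fold above every other library of the 7, while no gene was so in any other library. Results are therefore given with all libraries, without replicate 3, without replicate 2, and without both. In the last case ZT4 rests on replicate 1 alone, which is then assumed to vary like the libraries of the other groups. Replicate 3 was doubted for its clock transcripts, so stronger calls of clock genes without it are largely fixed by that choice. The same holds for the loss of muscle gene calls without replicate 2.

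With all libraries, 330 genes rose (2.99% of those tested) and 441 fell (3.99%) at ZT16. Without ZT4 replicate 3 the counts were 312 (2.82%) and 463 (4.19%). Without ZT4 replicate 2 they were 256 (2.32%) and 502 (4.54%), and without both they were 89 (0.806%) and 127 (1.15%). Similar totals did not mean similar genes: 197 of the rises and 295 of the falls were also called without replicate 3, and 178 and 213 were also called without replicate 2. In all 4 fits 40 genes rose (0.362%) and 60 fell (0.543%). Among the 441 falls, 102 were genes more than 5-fold above every other library in ZT4 replicate 2. Leaving out ZT16 replicate 2 gave 168 rises (1.52%) and 251 falls (2.27%).

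These calls rest on a spread estimated over all 16 groups of the series. When the 7 libraries were fitted alone, edgeR's test called 3 genes (0.0272%), although 1600 had an unadjusted p under 0.05. The 3 genes were the E3 ubiquitin ligase Peli2, which rose, and Ubd and Fabp7, which fell. Without ZT4 replicate 3, the same fit of 6 libraries called 122 rises (1.1%) and 107 falls (0.969%). Of the 40 rises and 60 falls common to the 4 fits, 27 and 38 were also called in that fit of 6 libraries, and the rest were not. That fit reuses libraries of the 4 fits, so it is no independent check of these genes.

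**Figure D2:**
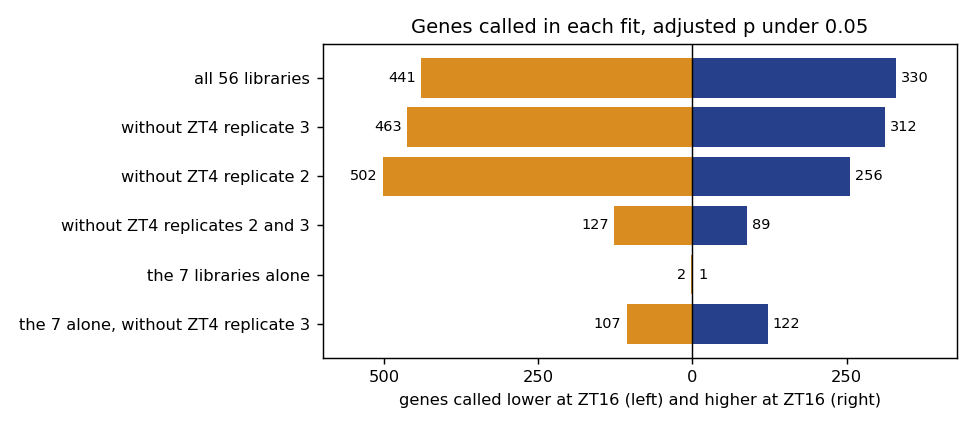
Number of genes called at an adjusted p under 0.05 (x axis), lower at ZT16 to the left and higher to the right, in 6 fits (y axis). The totals with all libraries and without ZT4 replicate 3 are alike, the counts shrink to 127 and 89 when both doubted libraries are left out, and to 2 and 1 when the 7 libraries are fitted alone.

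Of the 4 activators of the clock, 2 fell at ZT16 with all libraries and 3 fell without ZT4 replicate 3. Arntl was 60.5, 47.9 and 2.22 CPM in ZT4 replicates 1 to 3, and 3.9, 13.6, 9.02 and 6.04 CPM in ZT16 replicates 1 to 4. Replicate 3 was below every ZT16 library, so the groups overlapped only through it. Arntl fell by 2.17 on the log2 scale (SE 0.547, adjusted p = 0.0111), and by 2.73 without replicate 3 (adjusted p = 6.97e-05). Npas2, a partner of BMAL1, was 30.2, 33.5 and 0.532 CPM at ZT4 and 0.252 to 1.02 CPM at ZT16. It fell by 4.83 on the log2 scale (SE 0.75, adjusted p = 0.00013), and both genes were called in all 4 fits. Clock was 91, 85.7 and 44.6 CPM at ZT4 and 48.9 to 70.3 CPM at ZT16. It was not called with all libraries (adjusted p = 0.131) and fell by 0.61 without replicate 3 (adjusted p = 0.000914). Arntl2, the fourth gene of this list, was at most 0.269 CPM in any library.

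Of 7 repressors tested, 1 rose with all libraries, 3 rose without replicate 3, none was called without replicate 2, and 2 rose without both. Per2 was 22.6, 12.8 and 76.2 CPM at ZT4 and 104, 85.7, 73.5 and 76.4 CPM at ZT16. With all libraries its log2 difference was 1.19 (SE 0.396, adjusted p = 0.0588), and without replicate 3 it rose by 2.25 (adjusted p = 0.000226). Per3 showed the same layout with a wider gap, 1.28, 2.96 and 35.7 CPM at ZT4 against 34.6 to 47.3 CPM at ZT16. Its log2 difference was 1.59 with all libraries (adjusted p = 0.0966) and 4.25 without replicate 3 (adjusted p = 2.16e-05). Cry2, a cryptochrome repressor, was 20.7, 23.9 and 39.3 CPM at ZT4 and 38.1 to 51.1 CPM at ZT16. It rose by 0.74 with all libraries (SE 0.188, adjusted p = 0.0107) and by 1.06 without replicate 3, but was not called without replicate 2 (adjusted p = 0.0569).

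The other repressors were not called in any of the 4 fits. Cry1 was 18.1, 7.81 and 18.1 CPM at ZT4 and 19.3 to 28.9 CPM at ZT16, with no overlap (log2 difference 0.72, adjusted p = 0.0821). Per1 was 6.89, 17.4 and 29.9 CPM at ZT4 and 20.8 to 34.2 CPM at ZT16 (adjusted p = 0.392). Bhlhe40 overlapped, at 67.2 to 122 CPM and 57.1 to 94.7 CPM (adjusted p = 0.848). Ciart, another repressor of BMAL1, was highest in ZT4 replicate 3, at 4.43 CPM. It was 0.203 and 0.269 CPM in the other ZT4 libraries and 0.709 to 1.26 CPM at ZT16.

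The REV-ERB genes differed from each other. Nr1d2 (REV-ERB beta) was 29, 46.1 and 140 CPM at ZT4 and 91.9 to 113 CPM at ZT16, so replicate 3 had the highest level of the 7 libraries. It was not called with all libraries (log2 difference 0.54, adjusted p = 0.333) and rose by 1.46 without replicate 3 (adjusted p = 0.00134). Nr1d1 (REV-ERB alpha) was 6.35, 24 and 36.4 CPM at ZT4 and 9.85 to 30.5 CPM at ZT16. Its groups overlapped with or without replicate 3, and it was called in none of the 4 fits.

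Of the output factors, Dbp showed the widest difference between replicate 3 and its group. It was 3.38 and 3.86 CPM in ZT4 replicates 1 and 2, 135 CPM in replicate 3, and 118, 45.1, 57.9 and 107 CPM at ZT16. The log2 difference was 0.79 with all libraries (SE 0.787, adjusted p = 0.606) and 4.49 without replicate 3 (adjusted p = 0.00131). Tef was 19.3, 20.6 and 94.1 CPM at ZT4 and 97.9 to 125 CPM at ZT16, and here replicate 3 stayed just below the ZT16 range. Tef rose by 1.29 (SE 0.341, adjusted p = 0.0152), and by 2.45 without replicate 3 (adjusted p = 6.38e-07). It was not called without replicate 2 (log2 difference 0.95, adjusted p = 0.0991). Nfil3, which competes with these factors for the same DNA element, overlapped between the times at 62.7 to 77.5 CPM and 63.2 to 101 CPM. Bhlhe41, Rora and Hlf were not analysed here, and Rorb was below the filter on low counts.

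**Figure D3:**
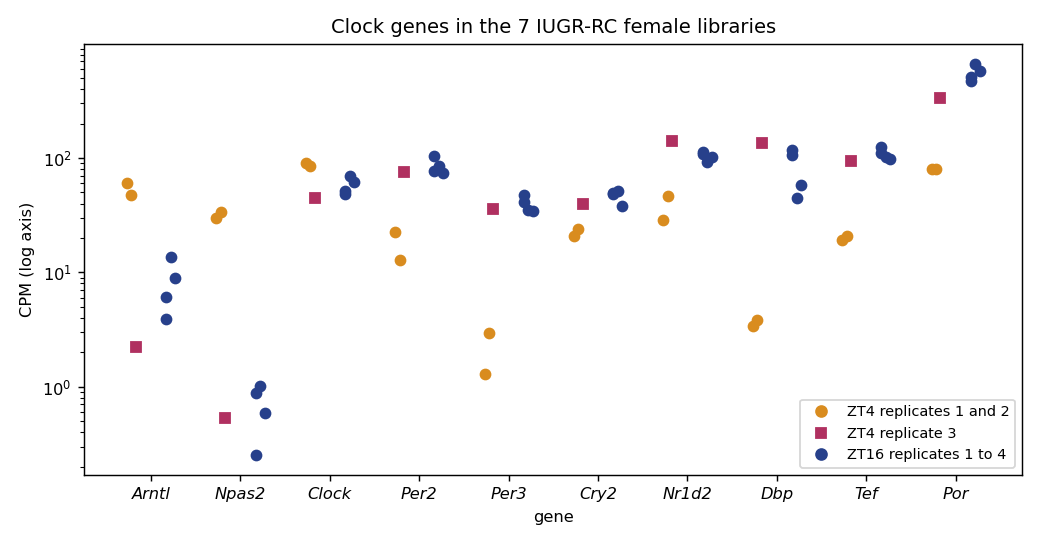
Level (CPM, log axis) of 9 clock genes and the clock output Por (x axis) in the 7 libraries, 1 point per library. For 8 of the 10 genes the square for ZT4 replicate 3 lies within the ZT16 points or beyond them, away from the 2 other ZT4 libraries, as for Npas2 at 0.532 CPM; for Tef (94.1 CPM) and Por (335 CPM) it lies between them and the ZT16 points.

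Genes further down the clock's output gave 4 rises and 2 falls among 21 tested with all libraries, 7 and 3 without replicate 3, 2 and 0 without replicate 2, and 4 and 3 without both. Por encodes the reductase that passes electrons to the cytochromes P450. It was 80.1, 80.5 and 335 CPM at ZT4 and 475, 670, 579 and 511 CPM at ZT16, with no overlap. Por rose by 1.76 (SE 0.397, adjusted p = 0.00453), by 2.79 without replicate 3, and was called in all 4 fits. Usp2, a deubiquitinase, rose from 5, 5.84 and 25 CPM to 32 to 57.1 CPM (log2 1.81, SE 0.497, adjusted p = 0.0197), and was not called without replicate 2 (1.49, adjusted p = 0.0908). Wee1, a kinase of the cell cycle, was 3.99, 4.13 and 23.2 CPM at ZT4 and 17.5 to 22.4 CPM at ZT16. It was called without replicate 3 (log2 2.3, adjusted p = 5.84e-08) and not with it (0.96, adjusted p = 0.0558). Klf13, whose replicate 3 (3.37 CPM) stayed nearer to the other ZT4 libraries (1.82 and 2.51 CPM) than to ZT16 (4.89 to 7.38 CPM), rose by 1.3 with and 1.53 without replicate 3, and was not called without both (adjusted p = 0.087).

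Promoters of 5 of these genes are shown, picked because they hold a DNA element through which clock proteins act. Those of Clock, Npas2, Per3, Cry2, Nr1d1, Nr1d2, Dbp and Usp2 held none of the elements searched for and are not shown. The sequences are the 250 bases before the start site from RefSeq (rat build GRCr8), 5′ to 3′ on the gene's strand, and 8923 of the tested genes had a promoter in that table by symbol. Capitals mark the element, which is a ROR element (TAGGTCA, or TGACCTA on the other strand, bound by ROR and REV-ERB proteins) in Arntl and Por. It is an E-box (CACGTG, bound by BMAL1 with CLOCK) in Tef, and a D-box (TTATGTAA, or TTACATAA on the other strand, bound by DBP and TEF) in Per2 and in Peli2, which is described further on.
Arntl promoter (chr1:176766078-176766327, plus strand): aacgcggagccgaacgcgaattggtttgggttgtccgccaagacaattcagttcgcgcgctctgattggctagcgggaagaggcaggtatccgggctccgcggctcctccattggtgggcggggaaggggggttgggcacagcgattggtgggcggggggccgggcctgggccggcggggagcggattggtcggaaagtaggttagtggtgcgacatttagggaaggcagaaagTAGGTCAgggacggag
Por promoter (chr12:26635810-26636059, minus strand): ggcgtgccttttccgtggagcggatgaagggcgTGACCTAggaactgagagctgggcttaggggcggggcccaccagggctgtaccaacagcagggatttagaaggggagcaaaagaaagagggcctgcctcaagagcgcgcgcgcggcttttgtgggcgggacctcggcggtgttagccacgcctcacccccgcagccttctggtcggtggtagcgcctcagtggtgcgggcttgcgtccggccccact
Tef promoter (chr7:115206577-115206826, plus strand): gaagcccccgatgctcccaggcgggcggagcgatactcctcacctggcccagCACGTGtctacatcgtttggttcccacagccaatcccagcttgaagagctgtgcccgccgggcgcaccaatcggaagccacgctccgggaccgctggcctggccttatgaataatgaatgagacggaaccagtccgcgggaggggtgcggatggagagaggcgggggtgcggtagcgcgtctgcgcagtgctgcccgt
Per2 promoter (chr9:99496994-99497243, minus strand): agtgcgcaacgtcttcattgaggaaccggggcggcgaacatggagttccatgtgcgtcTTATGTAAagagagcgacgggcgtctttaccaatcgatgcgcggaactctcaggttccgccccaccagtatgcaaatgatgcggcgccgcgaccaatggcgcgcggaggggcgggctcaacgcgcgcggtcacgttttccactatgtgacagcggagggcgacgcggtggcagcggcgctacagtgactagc
Peli2 promoter (chr15:23872734-23872983, plus strand): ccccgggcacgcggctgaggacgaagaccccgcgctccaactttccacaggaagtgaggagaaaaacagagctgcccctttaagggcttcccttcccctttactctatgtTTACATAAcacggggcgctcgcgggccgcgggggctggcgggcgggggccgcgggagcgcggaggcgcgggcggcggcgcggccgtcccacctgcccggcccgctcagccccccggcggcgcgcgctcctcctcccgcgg
The elements begin 16, 217, 198, 192 and 140 bases before the start site in this order.

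Across promoters, searched on both strands over 250 bases before to 50 after the start, 2.17% of 276 genes called higher and 0.857% of 350 called lower held a D-box, against 0.482% of all tested genes. An E-box was in 11.2% of genes called higher, 7.43% of those called lower and 9.3% of all tested genes. For the ROR element the shares were 2.9%, 1.71% and 1.91%. Of the genes common to the 4 fits, 34 rises and 46 falls had a promoter. Among these an E-box was in 1 and 2 genes (2.94% and 4.35%) and a D-box in 3 and 0 (8.82% and 0%). The ROR element was in 3 and 2 (8.82% and 4.35%). Over all 27457 promoters of the table the D-box was in 0.881%, the E-box in 6.65% and the ROR element in 2.6%. The D-box counts with all libraries were 6 and 3 genes, and a match is a description of these letters only.

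The 12 largest rises that were called both with all libraries and without ZT4 replicates 2 and 3 were Vdr, Pdxp, Usp2, Por, Tef, Slc9a3r1, Peli2, Mthfd1l, Mapre2, Fam195a, Ago4 and Lmo7. In 10 of the 12 replicate 3 was nearer to the ZT16 mean than to the other ZT4 libraries, the exceptions being Peli2 and Ago4. The choice leans on ZT4 replicate 1, so this count is not free of it. The share over all tested genes was not counted. Peli2 encodes an E3 ubiquitin ligase of innate immune signalling. It was 8.85, 9.79 and 12.1 CPM at ZT4 and 24.7, 22.8, 23.6 and 22.4 CPM at ZT16. It rose by 1.19 (SE 0.171, adjusted p = 5.15e-05), and by 1.16 to 1.4 in the fits without the doubted libraries. In this gene alone of the 12 the call also held with the 7 libraries fitted alone (adjusted p = 0.0441).

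Slc9a3r1, a scaffold that anchors membrane transporters, was 54.6, 44.3 and 116 CPM at ZT4 and 137 to 191 CPM at ZT16. It rose by 1.22 (SE 0.217, adjusted p = 0.000312). Pdxp, the phosphatase of pyridoxal phosphate, was 1.28, 0.898 and 3.63 CPM at ZT4 and 3.78 to 12.1 CPM at ZT16, a rise of 1.88 (SE 0.379, adjusted p = 0.00139). Vdr, the vitamin D receptor, was low throughout, at 0.27, 0.449 and 2.48 CPM against 1.97 to 7.43 CPM. It rose by 1.94 with all libraries (adjusted p = 0.0178) and was not called without replicate 2 (adjusted p = 0.0771). Mapre2, a microtubule-end protein, rose by 1.11 (SE 0.167, adjusted p = 9.32e-05), from 14.9, 16.9 and 31.3 CPM to 37.9 to 50.7 CPM. Ago4, an Argonaute protein of small RNA silencing, rose from 4.26, 7 and 7.62 CPM to 11 to 13.5 CPM. The 7 libraries did not overlap between the times in 9 of these 12 genes, which were chosen by their difference. Of all tested genes, 7.2% had every ZT16 library above every ZT4 library and 5% had every one below.

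The 12 largest falls chosen in the same way were Npas2, Rprm, Slc34a2, Ptk6, Cpa4, Acpp, Chka, Atp2b2, Arntl, Tubb2a, MGC105567 and Inhba. Here replicate 3 was nearer to the ZT16 mean in 11 of 12, a count with the same limit as for the rises. Of the 12, 10 overlapped between the times. None of the 12 overlapped without replicate 3, which the way they were chosen largely fixes; of all tested genes 10.6% then had every ZT16 library below both ZT4 libraries. Chka, choline kinase alpha, which starts the synthesis of phosphatidylcholine from choline, was 93, 101 and 12.2 CPM at ZT4 and 12.8 to 15.6 CPM at ZT16. It fell by 2.28 (SE 0.394, adjusted p = 0.0003). Atp2b2, a calcium pump of the plasma membrane, was 34.6, 31.7 and 3.19 CPM at ZT4 and 3.63 to 5.91 CPM at ZT16, and fell by 2.23 (adjusted p = 0.000992).

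Inhba, the activin A subunit, was 30.7, 28.6 and 3.63 CPM at ZT4 and 4.89 to 6.74 CPM at ZT16. It fell by 1.84 (SE 0.385, adjusted p = 0.00239). Slc34a2, a sodium-phosphate cotransporter, was 27, 56.5 and 5.49 CPM at ZT4 and 1.97 to 5.51 CPM at ZT16, a fall of 3.2 on the log2 scale. Tubb2a, a beta tubulin, fell by 1.95 from 44.2, 18.9 and 3.63 CPM to 4.78 to 7.25 CPM. MGC105567 was the exception in replicate 3, at 10.1, 8.62 and 5.85 CPM at ZT4 against 1.34 to 3.24 CPM at ZT16. It fell by 1.84 (SE 0.454, adjusted p = 0.00906).

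**Figure D4:**
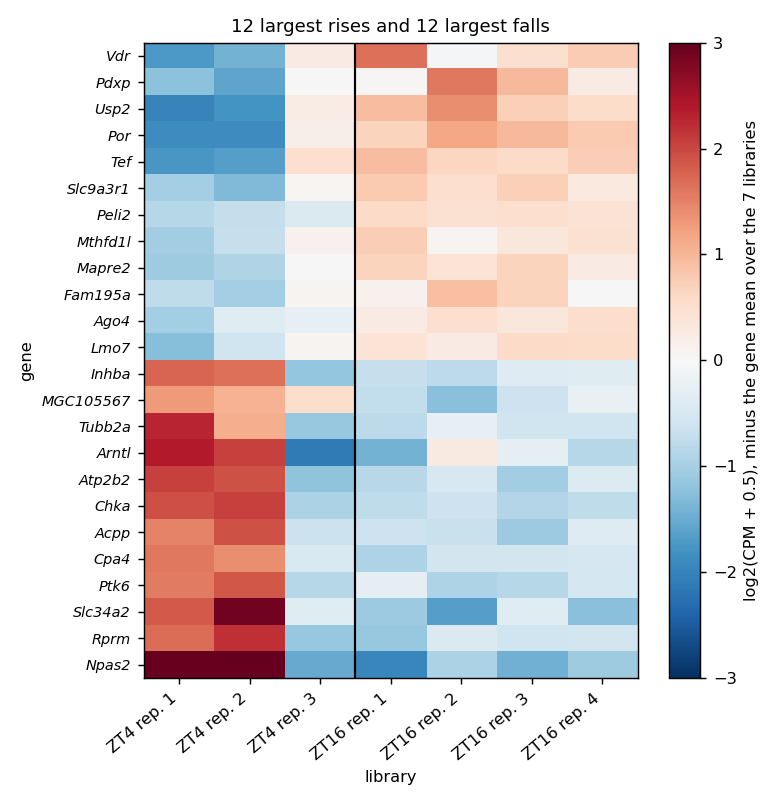
Level of the 12 largest rises and 12 largest falls (rows) in each of the 7 libraries (columns), as log2(CPM + 0.5) minus the gene's mean over the 7, with colours capped at 3 in either direction. The rows were chosen by their difference, which in 1 of the fits rests on ZT4 replicate 1 alone, and they include clock genes. The place of single libraries is therefore not free of the choice. ZT4 replicate 3 resembles the ZT16 columns in most rows, and less so in Peli2 and MGC105567.

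Several of the 60 falls common to the 4 fits are metabolic enzymes or regulators, named here after their values were seen. Gk, glycerol kinase, which starts the use of glycerol for glucose and triglycerides, was 615, 478 and 262 CPM at ZT4 and 134 to 157 CPM at ZT16, with no overlap. It fell by 1.63 (SE 0.208, adjusted p = 4.88e-06), and its replicate 3 lay between the other ZT4 libraries and ZT16. Kynu, kynureninase of tryptophan breakdown, fell by 1.17 from 265, 176 and 78.9 CPM to 68.1 to 82.9 CPM. Ppard, a nuclear receptor for fatty acids, fell by 1.5 from 36.5, 29.9 and 5.41 CPM to 7.68 to 10.6 CPM. Litaf, an endosomal membrane protein, fell by 1.75 from 178, 140 and 22.5 CPM to 27.1 to 38.2 CPM. Among the 40 rises was Rxra, the partner of many nuclear receptors, at 93.6, 105 and 103 CPM against 140 to 164 CPM. Its replicate 3 stayed with the other ZT4 libraries, and it rose by 0.6 (SE 0.128, adjusted p = 0.00229).

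In glucose metabolism 2 of 21 tested genes rose and 3 fell with all libraries, and 5 rose and 3 fell without replicate 3. For this and the other lists, the shares over all tested genes were 2.99% rising and 3.99% falling with all libraries. Without replicate 3 they were 2.82% and 4.19%. The median log2 difference of the glucose list was 0.18, against -0.02 over all tested genes. Gckr, the protein that holds glucokinase inactive in the nucleus, was 281, 249 and 76.5 CPM at ZT4 and 72 to 90.7 CPM at ZT16. It fell by 1.3 (SE 0.256, adjusted p = 0.00112) and was called in all 4 fits. Gys2, the liver glycogen synthase, was 92.8, 58.6 and 171 CPM at ZT4 and 163 to 247 CPM at ZT16. It rose by 0.84 (SE 0.222, adjusted p = 0.0155) and was not called without replicate 2 (adjusted p = 0.13). Slc2a2, the main glucose transporter of hepatocytes, was 364, 369 and 1140 CPM at ZT4 and 769 to 835 CPM at ZT16. It was called without replicate 3 (log2 1.13, adjusted p = 5.48e-06) and not with it (0.37, adjusted p = 0.298). Pgm1, which joins glucose and glycogen metabolism, was between 125 and 159 CPM at ZT4 and between 171 and 209 CPM at ZT16, and rose by 0.41 (adjusted p = 0.0228), but was not called without replicate 3.

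Gluconeogenesis and the breakdown of amino acids were followed over 29 genes, of which 2 rose and 2 fell with all libraries, and 7 rose and 1 fell without replicate 3. Cth, which makes cysteine from cystathionine, was 1230, 1020 and 283 CPM at ZT4 and 380, 185, 247 and 545 CPM at ZT16. It fell by 1.32 (SE 0.328, adjusted p = 0.00997) and was called in all 4 fits. Mat1a, the liver's enzyme for S-adenosylmethionine, was 2860, 2590 and 6550 CPM at ZT4 and 4590 to 6570 CPM at ZT16. It was called only in the 2 fits without replicate 3, with a rise of 1.03 when replicate 3 alone was left out (adjusted p = 0.000143). Otc of the urea cycle was 799, 567 and 1050 CPM at ZT4 and 505 to 582 CPM at ZT16, and fell by 0.57 (adjusted p = 0.04); replicate 3 was its highest library, and it was not called without it (adjusted p = 0.349).

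The calls in the lipid lists stand beside shares of 2.99% of all tested genes rising and 3.99% falling with all libraries. Of 26 genes of fatty acid and triglyceride synthesis, none was called with all libraries by edgeR's test or DESeq2 (2 at an unadjusted p under 0.05), 3 rose without replicate 3 and none was called without replicate 2. The 3 were Acaca, Lpin2 and Acss2. Acaca, acetyl-CoA carboxylase, was 170, 126 and 371 CPM at ZT4 and 298 to 428 CPM at ZT16 (log2 0.7, adjusted p = 0.162; without replicate 3, 1.28, adjusted p = 0.0102). Of 25 genes of cholesterol synthesis, 1 was called with all libraries. This was Mvk, mevalonate kinase, at 25.1, 20.6 and 16.3 CPM at ZT4 and 23.1 to 36.9 CPM at ZT16, with a rise of 0.52 (adjusted p = 0.0496) that was not called without replicate 3 (adjusted p = 0.274). In fatty acid oxidation 2 of 32 rose and 1 fell. Acaa1a, a thiolase of peroxisomes, was between 205 and 234 CPM at ZT4 and between 289 and 364 CPM at ZT16, and rose (log2 0.53, adjusted p = 0.00915), but was not called without both replicates (adjusted p = 0.15). Etfdh, which feeds electrons from fatty acid oxidation into the respiratory chain, fell by 0.54 and was called in all 4 fits.

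The bile acid and transport list had 0 rises and 3 falls among 24, the same 3 falls without replicate 2, but 1 rise and 1 fall without replicate 3. Nr1h4, the bile acid receptor FXR, was 128, 106 and 169 CPM at ZT4 and 81.7 to 99.3 CPM at ZT16, and fell by 0.6 (adjusted p = 0.00687). Slco1b2, an uptake transporter, was 1940, 1690 and 2430 CPM at ZT4 and 1030 to 1250 CPM at ZT16, a fall of 0.85 (adjusted p = 0.0188). Both were highest in replicate 3, and neither was called without it (adjusted p = 0.101 and 0.0966), although the groups still did not overlap. Slco1a1 was the third. In drug metabolism 4 of 40 rose and none fell: Por, the xenobiotic receptor gene Nr1i2, Cyp2d2 and Gstp1. Beside both lists, 2.99% of all tested genes rose and 3.99% fell with all libraries. Nr1i2 was 93.3, 86.5 and 204 CPM at ZT4 and 181 to 257 CPM at ZT16, with a rise of 0.7 (adjusted p = 0.0155), and was not called without replicate 2 (0.48, adjusted p = 0.127). In that fit 1 gene of the list rose. Cyp2d2 was between 651 and 776 CPM at ZT4 and between 965 and 1050 CPM at ZT16. It rose by 0.47 but was not called without replicate 3 (adjusted p = 0.149).

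Chaperones of the endoplasmic reticulum were among the falls, and in the 3 described here replicate 3 lay within the range of the other ZT4 libraries. Of 26 genes of the unfolded protein response, 4 fell and 1 rose with all libraries, 4 and 2 without replicate 3, 8 and 0 without replicate 2, and 4 and 0 without both; 3 falls, Hspa5, Manf and Creld2, were common to the 4 fits. DESeq2 called 8 genes of this list with all libraries. Over all tested genes 3.99% fell and 2.99% rose by edgeR's test with all libraries. The median log2 difference of the list was -0.37, against -0.02 over all tested genes. Hspa5, the main chaperone of this compartment (BiP), was 1590, 890 and 1130 CPM at ZT4 and 672, 593, 765 and 877 CPM at ZT16. The groups did not overlap, and Hspa5 fell by 0.73 (SE 0.199, adjusted p = 0.0183). Manf, a protein secreted under stress of this compartment, was 97.4, 46.5 and 65.1 CPM at ZT4 and 29.3 to 44.6 CPM at ZT16, and fell by 0.95 (SE 0.227, adjusted p = 0.00682). Creld2 fell by 0.96, from 64.7, 31.2 and 41.6 CPM to 16.6 to 30.1 CPM. Edem1, which sends misfolded proteins to degradation, rose by 0.91, from 496, 474 and 678 CPM to 719 to 1370 CPM, and was not called without replicate 2 (adjusted p = 0.0656).

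In the list of insulin and nutrient response, 2 of 21 genes fell and none rose, beside 3.99% and 2.99% of all tested genes. Igf1, the growth factor that the liver secretes under growth hormone, was 675, 646 and 724 CPM at ZT4 and 509, 485, 503 and 471 CPM at ZT16. The groups were well apart in every library, and Igf1 fell by 0.47 (SE 0.125, adjusted p = 0.0151), by 0.43 without replicate 3 and by 0.51 without replicate 2. It was not called without both (adjusted p = 0.202). Stat5b, a transducer of growth hormone signalling, was 35.5, 42 and 18.1 CPM at ZT4 and 18.4 to 25 CPM at ZT16, so that replicate 3 was the lowest library. It fell by 0.57 (adjusted p = 0.0247) and was not called without replicate 2 (adjusted p = 0.256).

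Lists of the glucocorticoid response (17 genes), heat shock (19), ribosome biogenesis (23), cell division (26) and oxidative phosphorylation (26) had no call with all libraries by edgeR's test or DESeq2. At an unadjusted p under 0.05 they held 2, 2, 3, 9 and 7 genes, in this order. Of all 11047 tested genes, 1077 higher and 1380 lower at ZT16 had such a p. The smallest adjusted p among the 5 lists was 0.0537, for Ccna2 of cell division. Without replicate 2, oxidative phosphorylation had 3 falls, and heat shock and ribosome biogenesis had 1 fall each. Without replicate 3, oxidative phosphorylation had 1 rise, and heat shock and cell division had 1 fall each. Interferon-stimulated genes had 1 rise, Stat2, and 2 falls, Ifit2 and Ifi44, among 27. Over all tested genes 2.99% rose and 3.99% fell. Stat2 was not called without replicate 2 (adjusted p = 0.11), nor Ifi44 without replicate 3 (adjusted p = 0.229). Ifit2 was 61.1, 51.4 and 29.2 CPM at ZT4 and 25 to 31.4 CPM at ZT16, and fell by 0.76 (adjusted p = 0.00147; called in all 4 fits). Il6r, the interleukin 6 receptor, was the only call among 22 genes of the acute phase, a rise of 0.84 (adjusted p = 0.0245). Without replicate 2 it was not called (0.75, adjusted p = 0.0866), and the list had 1 fall, Apcs (adjusted p = 0.0473).

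**Figure D5:**
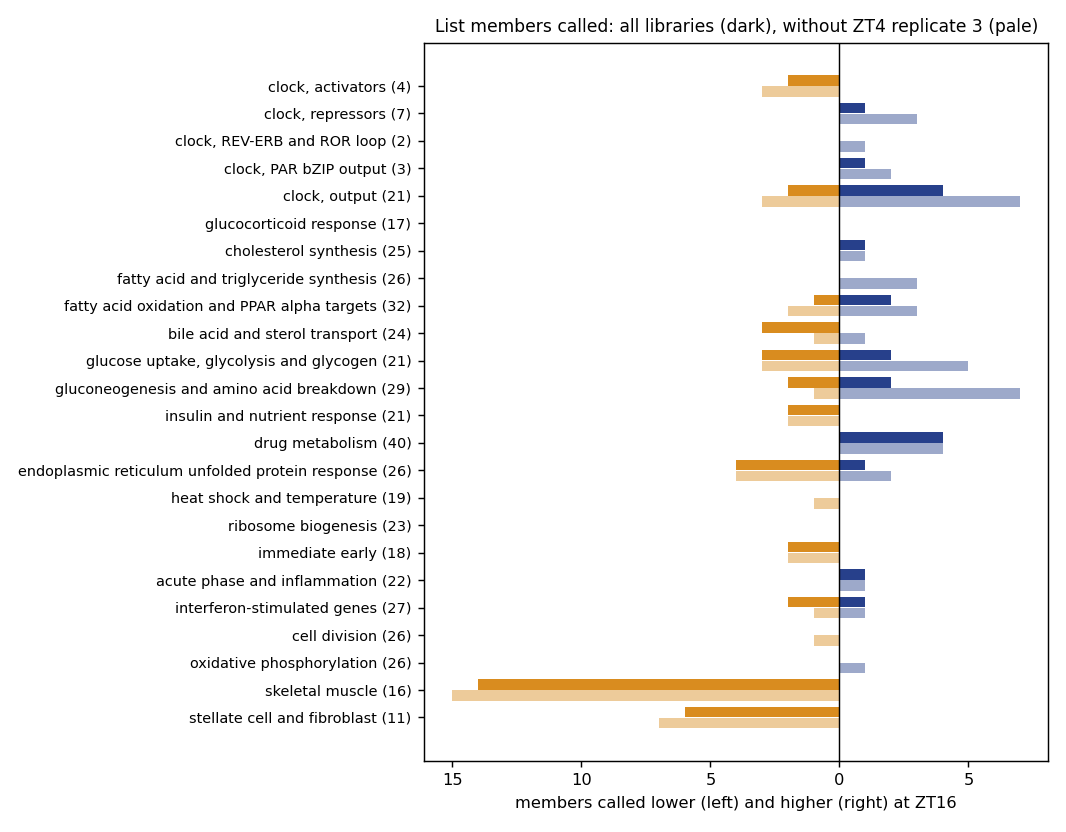
Number of list members called lower (left) and higher (right) at ZT16 (x axis) for 22 pathway lists and the 2 marker lists high in ZT4 replicate 2 (y axis, with the number of tested genes). Dark bars use all libraries and pale bars leave out ZT4 replicate 3. The clock lists gain calls without it, which is largely fixed by doubting that library for its clock transcripts. Skeletal muscle has 14 and 15 falls that are 0 without ZT4 replicate 2.

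The largest falls in size were muscle genes of 1 library. Acta1 was 1310 CPM, Myh1 743 CPM, Ckm 592 CPM, Myh2 279 CPM and Myh7 205 CPM in ZT4 replicate 2. In the other 6 libraries none of these 5 genes exceeded 0.709 CPM. They encode skeletal muscle actin, myosin heavy chains and muscle creatine kinase. Of 16 tested skeletal muscle markers 14 were called lower with all libraries by edgeR's test, which called 0 without replicate 2. With all libraries DESeq2 called 4, where a gene given no adjusted p counted as not called. The stellate cell and fibroblast markers had 6 falls among 11, 0 without replicate 2 and 1 without both replicates. That 1 was Pdgfrb, a receptor of stellate cells, which was not high in replicate 2 alone, at 27.2, 34.3 and 7.44 CPM at ZT4 and 9.98 to 13.1 CPM at ZT16 (without both, -1.26, adjusted p = 0.00568). Dcn (decorin) was 19.4, 175 and 16.7 CPM at ZT4 and 4.73 to 13.8 CPM at ZT16, and Des (desmin, also a muscle protein) was 3.11, 145 and 2.57 CPM at ZT4 and 1.65 to 4.15 CPM at ZT16.

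Of the 18 immediate early genes, 2 were called lower, and both were high in the same library. Nr4a1 was 0.946, 12.8 and 1.15 CPM at ZT4 and 0.552 to 1.33 CPM at ZT16. Klf4 was 2.16, 12.2 and 3.1 CPM at ZT4 and 1.58 to 3.56 CPM at ZT16. Without replicate 2 neither was called (adjusted p = 0.953 and 0.94). The glycogen primer gene Gyg1, also lower with all libraries, was 27.4 CPM in replicate 2 and 8.06 to 12 CPM in the other 6, and the fat cell marker Fabp4 was 28.8 CPM against 0 to 2.14 CPM. In whole tissue, more cells of a type and more RNA per cell cannot be told apart.

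In IUGR-RC males, 585 genes rose (5.3%) and 585 fell (5.3%) between the same times, and in CON females 260 rose (2.35%) and 379 fell (3.43%). No library is shared between these comparisons, although all take their spread from the same fit. Of the 330 rises in IUGR-RC females, 175 were also rises in the males, which is 53% of the first list and 29.9% of the second; of the 441 falls 109 were shared, 24.7% and 18.6%. With CON females 64 rises were shared (19.4% and 24.6%) and 71 falls (16.1% and 18.7%). Without ZT4 replicate 3 the rises shared with CON females were 118 (37.8% and 45.4%) and the falls 143 (30.9% and 37.7%). Without ZT4 replicate 2 they were 38 (14.8% and 14.6%) and 43 (8.57% and 11.3%). The rises shared with males were then 112 (43.8% and 19.1%). Of the 12 largest rises 12 were also called in males and 11 in CON females, all but Ago4. Of the 12 largest falls 9 and 10 were.

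The difference of the time effect between IUGR-RC females and IUGR-RC males was tested as an interaction, and 4 genes were called more positive (0.0362%) and 12 more negative (0.109%) in females. Of these 16 genes, 6 (Fhl1, Tpm2, Des, Eno3, Hspb6 and Asb5) are known from muscle. Fhl1 was 173 CPM in ZT4 replicate 2 and 2.22 to 4.79 CPM in the other 6. The interaction gave 21 genes (0.19%) without ZT4 replicate 2, 102 (0.923%) without ZT4 replicate 3 and 144 (1.3%) without ZT4 replicate 1. A fit of the 15 IUGR-RC libraries alone gave none (632 at an unadjusted p under 0.05).

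Lingo4 showed the difference in every setting of the 4 fits. In females it was 178, 109 and 156 CPM at ZT4 and 206 to 269 CPM at ZT16. In males it was 29.8 to 50.3 CPM at ZT4 and 184 to 289 CPM at ZT16. The sexes were thus far apart at ZT4 and overlapped at ZT16, and the difference of the log2 changes was -1.74 (SE 0.267, adjusted p = 0.000457; -2.02 without both doubted libraries). Sorbs3, an adaptor of cell adhesion, was 49.3, 36.8 and 46.2 CPM in females at ZT4 and 50 to 86.1 CPM at ZT16, against 15.7 to 21.9 CPM and 55.8 to 69.4 CPM in males. Its difference was -1.27 (SE 0.235, adjusted p = 0.00587), and it was also called in the 4 fits.

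Egf, the epidermal growth factor, went the other way. It was 4.46, 4.4 and 7.44 CPM in females at ZT4 and 6.42 to 9.38 CPM at ZT16, where males were 4.09 to 6.34 CPM and 1.72 to 2.41 CPM. The difference was 1.86 (SE 0.315, adjusted p = 0.00205), called in the 4 fits. Fras1, a protein of the extracellular matrix, was 0.31 to 2.51 CPM in males at ZT4 and 20.7 to 89.1 CPM at ZT16. In females it was at most 2.6 CPM in any library, and its difference was not called without ZT4 replicate 2 (adjusted p = 0.426). Slc35g1, Mob1b and Sdr42e1 were more positive in females (1.81, 0.74 and 1.06, adjusted p = 0.0322 each) and were not called without replicate 2 (adjusted p = 0.106, 0.106 and 0.0778).

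For clock genes no interaction with sex was called with all libraries. Nr1d1 was 39.6 to 70.2 CPM in males at ZT4 and 5.01 to 15.9 CPM at ZT16, a fall of 2.31 in males. The difference from females was 2.29 (SE 0.71, adjusted p = 0.173). Per2 rose by 3.11 in males, and its difference was -1.92 (adjusted p = 0.115) with all libraries and -0.87 (adjusted p = 0.58) without replicate 3. Without replicate 2 it was called against males (-2.33, adjusted p = 0.0337) and against CON females (-2.29, adjusted p = 0.0176). In the same fit Wee1 was also called more negative than in males, and Per3, Ciart, Dbp, Tef and Wee1 more negative than in CON females. ZT4 there rests on replicates 1 and 3, and replicate 3 has clock transcripts near the ZT16 levels. Without replicate 3, no clock gene was called in either interaction. Heat shock genes were called in 9 rises and 1 fall among 19 in males and in 5 rises in CON females, against no call in IUGR-RC females, and none of the 19 was called in either interaction with all libraries. Without ZT4 replicate 2 the interaction called 2 of them more negative than in males and 6 more negative than in CON females. Without ZT4 replicate 3 neither interaction called any of the 19. Ribosome biogenesis had 10 falls and 1 rise among 23 in males, and no interaction called with all libraries, against 1 without ZT4 replicate 3.

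Against CON females no gene was called by edgeR's test (0%), with 1880 genes at an unadjusted p under 0.05 and 50 called by DESeq2. This count depended on single libraries: 612 genes (5.54%) were called without ZT4 replicate 2, 121 (1.1%) without ZT4 replicate 1 and 36 (0.326%) without ZT4 replicate 3. Titles of the IUGR-RC and CON libraries come from different number series, so library series and diet history cannot be told apart. The smallest adjusted p was 0.0713, shared by Bgn, Tcf7l1, Plekhm1, Kdm2b, Dcn, Mcpt1l1, Tc2n and Fkbp3. Fkbp3 was 48.4, 52.3 and 61.4 CPM at ZT4 and 31.3 to 38.6 CPM at ZT16 in IUGR-RC females, and 13.7 to 16.1 CPM and 18.5 to 21.8 CPM in CON females. Its log2 difference between the time effects was -1.13. Bgn (biglycan) was 138, 177 and 149 CPM and 184 to 227 CPM in IUGR-RC females, and 206 to 220 CPM and 143 to 172 CPM in CON females. The difference was 0.82.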

How the data were processed

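Liver RNA was sequenced on an Illumina HiSeq from total RNA with a stranded kit that removes ribosomal RNA, per the labels' protocols; the molecule label reads polyA RNA. Per the submitters' processing notes the tools were STAR, featureCounts (Subread), FastQC and DESeq2, and the build was rn6; their versions and settings are not given in the sources used here. The deposited table gives whole-number read counts for each gene symbol, not normalized. Depth over the 56 libraries was 5549530 to 19065339 reads, and their number and spread limit the precision more than counting error.

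Genes were filtered with filterByExpr and fitted in edgeR 4.0.16 (R 4.3.3; TMM scaling, robust quasi-likelihood, 1 mean for each of 16 groups, 40 residual degrees of freedom); tests were two-sided and adjusted over 11047 genes at 0.05. The SE of a log2 fold change is its size over the square root of the F statistic. Interactions are contrasts of the same fit. The procedure was tested on simulated data. DESeq2 1.42.0, other scalings, filters and left-out libraries were alternatives. In counts of DESeq2 calls, a gene given no adjusted p counted as not called. No pair of replicates agreed within counting error (chi-square per degree of freedom 65 to 109 at ZT4 and 12.1 to 40.4 at ZT16).

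Members, the 34 gene lists (22 of pathways and 12 of cell markers, 614 of 636 entries matched, 558 tested) and tests were chosen with earlier results of these data known. Named are the clock genes, the 12 largest rises and falls at a mean of at least 1 CPM called with all libraries and without ZT4 replicates 2 and 3, the 5 largest falls, the 4 members of each list and the 4 genes in each direction of each interaction with the smallest p. Other genes were named after their values were seen.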

Additional observations from a re-analysis of the deposited data

Results flagged for a closer look

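Among 127 named genes, 12 had a ZT16 library far from the other 3 by Dixon's test at the 95% level, where chance flags about 1 in 20. Per1 was 20.8 CPM in ZT16 replicate 4 against 32.6 to 34.2 CPM in the others. In ZT16 replicate 1, Acaa1a was 364 CPM against 289 to 301, Fhl1 3.27 against 2.22 to 2.28, and Cpa4 0.252 against 0.469 to 0.508 CPM. In ZT16 replicate 2, Nr4a1 was 0.552 CPM against 1.26 to 1.33, Sdr42e1 82.6 against 58.8 to 61.9, and Uqcrc1 159 against 143 CPM. In ZT16 replicate 3, Mreg was 41.8 CPM against 32.2 to 33.9, Gls2 315 against 248 to 252, and Tcf7l1 31.8 against 35.9 to 36.6 CPM. Arntl2 in ZT16 replicate 2 (0.0788 CPM) and Ckm in ZT16 replicate 1 (0.126 CPM) stand apart from others listed at 0.

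The time effect differed between IUGR-RC females and IUGR-RC males by the interaction test of edgeR, on the log2 scale, by 1.86 for Egf, 1.81 for Slc35g1, 0.74 for Mob1b, 1.06 for Sdr42e1, -1.74 for Lingo4, -7.86 for Fras1, -1.27 for Sorbs3 and -5.08 for Fhl1. The value for Fhl1 moves with the muscle transcripts of ZT4 replicate 2, without which it was -1.04.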

How the results depend on the processing

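With DESeq2 size factors, no low-count filter or no robust shrinkage the count of called genes stayed within 1.5 times 771 (757, 787 and 777), and DESeq2 called 833. Leaving out each replicate in turn gave 419 to 775 genes, 168 to 312 higher and 251 to 502 lower; 291 were lower without ZT16 replicate 3. Without ZT4 replicates 2 and 3 together 216 were called, 89 higher and 127 lower. Fitted alone, the 7 libraries gave 3 (1 higher, 2 lower), the 15 IUGR-RC libraries 10 (3 and 7), and, chosen after seeing the data, 6 libraries without ZT4 replicate 3 229 (122 and 107), 14 without it 319 (116 and 203) and 13 without both 81 (24 and 57). The cause of each change was not tested. Of the pathway list members 40 were called, 18 to 62 with each replicate left out, 0 in both fits alone with all libraries and 17 in that of 13. Of the 127 named genes 71 were called, 41 to 68 with each replicate left out, 42 without both, 1 and 1 in the fits of 7 and 15, and 39, 43 and 21 in those of 6, 14 and 13. The interaction with males gave 16 genes, 7 to 144 with each replicate left out, 9 without both, 82 by DESeq2 and 0 in the fits of 15, 14 and 13. The interaction with CON females gave 0, 0 to 612 with each replicate left out, 2 without both and 50 by DESeq2.

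Among the 71 named genes called with all libraries the sign turned in Acta1, Ckm, Nr4a1 and Klf4, which were high in ZT4 replicate 2, and Myh7 went to 0.00; the fitted log2 values of muscle genes depend on the prior count and are no bounds. With each replicate left out Ckm ranged from -14.00 to 1.52, Myh7 from -13.04 to 0.00 and Nr4a1 from -2.67 to 0.073, each highest without ZT4 replicate 2. Without both replicates Acta1 was 2.21, Ckm 1.5, Myh7 0.00, Nr4a1 0.21 and Klf4 0.21, and in the fit of 13 libraries they were 2.37, 1.63, 0.00, 0.22 and 0.22. None of these values with a turned sign was called.

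The time index moved with its genes. With genes of log2 at least 2 in males it was 0.149, 0.156 and 0.705 in ZT4 replicates 1 to 3 and 0.877, 0.776, 0.845 and 0.796 at ZT16. On the line of CON females it was 0.207, 0.230 and 1.01, and 0.923, 0.920, 0.864 and 0.880. The replicate numbers were given in accession order. No paired analysis was possible because they tie no library to another.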

Other observations

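Other genes called in all 4 fits, named after their values were seen, fall outside the lists above. Crot, which moves fatty acyl groups out of peroxisomes, was 432, 176 and 106 CPM at ZT4 and 62.2 to 97.7 CPM at ZT16, a fall of 1.71 on the log2 scale (SE 0.381, adjusted p = 0.0041 by edgeR's test). The tight junction genes Cldn1 and Cldn2 both fell. Cldn1 was 106, 70.6 and 24.1 CPM at ZT4 and 21.2 to 35.7 CPM at ZT16, and Cldn2 was 138, 118 and 63.8 CPM at ZT4 and 55.2 to 66 CPM at ZT16. Nfe2l2, the transcription factor NRF2 of the antioxidant response, was 265, 187 and 196 CPM at ZT4 and 110 to 144 CPM at ZT16, with no overlap, and fell by 0.75 (SE 0.177, adjusted p = 0.00643). Scfd1, of vesicle traffic between endoplasmic reticulum and Golgi, fell by 0.93 (adjusted p = 0.000933), and its replicate 3 was the highest library, at 107 CPM against 83.1 and 49.2 CPM in the other ZT4 libraries and 37.4 to 45.9 CPM at ZT16. Arnt, a partner of the hypoxia-inducible factors and of the aryl hydrocarbon receptor, rose by 0.68 (adjusted p = 0.00906), from 24.2, 33 and 45.4 CPM to 44.4 to 59.5 CPM.

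Fabp7, a fatty acid binding protein, was 22.3, 25.1 and 40.1 CPM at ZT4 and 5.92 to 8.91 CPM at ZT16, a fall of 1.97 (adjusted p = 0.0041). It was not called without ZT4 replicates 2 and 3 together (adjusted p = 0.185). Ubd, a ubiquitin-like protein, was 82.4, 92.2 and 125 CPM at ZT4 and 18.9 to 34 CPM at ZT16. In both genes replicate 3 was farther from ZT16 than its group. Ubd was called with the 7 libraries alone (adjusted p = 0.0441) and not in the fit of 56 (log2 difference -1.75, adjusted p = 0.417).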
